A study of Mus musculus with 10 samples.

Results

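Transcript levels of 10 FGF-ERK pathway genes were examined in mouse J1 embryonic stem cells (ESCs) with knockouts of glycogen synthase 1, AMPK or both. The genes were chosen by name: the ligand Fgf4, the receptors Fgfr1 and Fgfr2, the feedback inhibitors Spry2, Spry4, Dusp6 and Dusp4, the ETS transcription factors Etv4 and Etv5, and the immediate early gene Egr1. All 10 were found among the 21853 genes listed for each library, and all 10 were among the 12060 genes tested, which reached 1 TPM (a level scaled by transcript length and by the total of the library) in at least 2 libraries. Fgfr2 passed this filter only through the primed libraries.

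RNA-seq had been performed on 10 libraries, 2 from each of 5 lines. These were wild-type J1 cells (naïve ESCs), cells with a knockout of the AMPK gene Prkaa1 (AKO) and cells with a Gys1 knockout (GKO). Gys1 is the glycogen synthase gene. The other lines were cells with both knockouts (DKO) and wild-type J1 cells converted to the primed state (primed ESCs). The naïve, AKO, GKO and DKO lines were all grown with 1000 U/ml mouse leukemia inhibitory factor, 1 µM of the MEK inhibitor PD0325901 and 3 µM of the GSK3 inhibitor CHIR99021, a medium that inhibits the pathway at MEK. The primed cells received 10 ng/ml bFgf and 20 ng/ml Activin on Matrigel in place of these, so that the state of the cells and their medium cannot be told apart. The knockouts had been made with Cas9, the Gys1 knockout from picked single clones and the AMPK knockout from cells sorted for a reporter; which clones gave these libraries was not stated. Nothing said that the 2 libraries of a line came from separate cultures, so that p-values measure only the spread between these libraries.

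In the FGF-ERK pathway, an FGF ligand binds a receptor tyrosine kinase, which through adaptors and Ras switches on the kinases Raf, MEK and ERK. ERK then raises the transcription of ETS factors and immediate early genes, and of its own inhibitors: Sprouty proteins act near the receptor and Ras, and dual-specificity phosphatases remove the activating phosphates from ERK. Mouse ESCs make FGF4 themselves, and the resulting ERK activity favours departure from the naïve state, which is why naïve media contain a MEK inhibitor.

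The labels were checked against the files first. Prkaa1, which encodes a catalytic AMPK subunit, had 15.5 and 16.6 TPM in the naïve libraries, 7.24 and 6.94 in AKO and 2.30 and 2.04 in DKO. It was also called lower in GKO, which keeps AMPK, at 12.2 and 11.96 TPM (adjusted p = 0.00155 by limma). Prkaa1 was lower in DKO than in AKO, by -1.35 ± 0.07 on the log2 scale (adjusted p = 3.39e-06 by limma). AKO and DKO thus differed in Prkaa1 mRNA as well as in the Gys1 knockout. The part of this in comparisons of DKO with AKO was not tested. Prkaa2, which encodes another catalytic AMPK subunit, was not targeted. It lay at 2.39 and 2.41 TPM in naïve ESCs, 2.71 and 2.44 in AKO, 3.27 and 3.29 in GKO, and 3.29 and 3.10 in DKO. By limma it was called higher in GKO (adjusted p = 0.00785) and in DKO (adjusted p = 0.0136). Gys1 mRNA was measured at 11.5 and 10.8 TPM in the naïve libraries and 9.70 and 9.98 TPM in those of GKO, a difference that did not pass the test (adjusted p = 0.05002 by limma), and at 12.1 and 11.7 TPM in DKO, not below naïve ESCs. An indel need not lower the mRNA, so that these values do not check the Gys1 labels. The Y-linked gene Eif2s3y was at 37.3 to 41.5 TPM in the 4 GKO and DKO libraries and listed at 0 in the 6 others. The effect of the Gys1 knockout therefore cannot be told apart from this difference between the cells. Ddx3y, also Y-linked, was at 8.11 and 7.83 TPM in GKO and 22.9 and 20.9 in DKO. Uty was at 2.36 and 2.35 TPM in GKO and 7.05 and 6.24 in DKO. GKO and DKO thus also differed from each other in Y-linked genes, and the part of this in their comparison was not tested. The 6 naïve pluripotency markers summed to 1364 and 1419 TPM in naïve ESCs, 1421 and 1427 in AKO, 1530 and 1569 in GKO, and 1601 and 1602 in DKO. In primed ESCs they summed to 108 and 116 TPM. Of these markers, Esrrb was at 234 and 232 TPM in GKO against 186 and 174 in naïve ESCs, while Zfp42 overlapped between these lines. The 5 primed markers summed to 48.7 and 49.5 TPM in naïve ESCs, 40.3 and 41.0 in AKO, and 48.6 and 50.4 in DKO. In GKO they summed to 68.8 TPM in both libraries, and in primed ESCs to 378 and 429 TPM. Most of the higher sum in GKO was Zic2, at 33.7 and 33.3 TPM against 14.4 and 13.7 in naïve ESCs. The DKO sum held changes in both directions. Dnmt3b was at 41.0 and 41.3 TPM in DKO, against 27.5 and 28.3 in naïve ESCs. Zic2 was at 4.48 and 5.37 TPM in DKO, and Otx2 at 2.39 and 2.98 against 5.7 and 6.1 in naïve ESCs. Pou3f1 was also lower in DKO, at 0.678 and 0.644 against 1.07 and 1.32 TPM. The core factors Pou5f1 and Sox2 summed to 965 to 1112 TPM in the first 4 lines and to 598 to 655 TPM in primed ESCs. Of the markers of other cell types, primitive endoderm genes summed to 7.08 TPM, trophectoderm genes to 31.4 TPM and fibroblast genes to 14.7 TPM at most. Mesendoderm genes summed to 32.1 to 37.8 TPM in naïve ESCs, AKO and GKO, 21.9 and 23.0 in DKO, and 2.57 and 17.7 in primed ESCs. Of these, Eomes and T lay at percentiles 64.8 and 57.8 of the genes tested in naïve ESCs, so that they were not low. These are bulk samples, in which fewer cells of a type and less RNA per cell cannot be told apart.

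Promoter sequences are shown for the 4 genes that carry the results on which a promoter could be read: Spry2, which changed in every comparison between lines, Fgf4 and Fgfr2, which differed widely between the naïve and primed states, and Dusp6, which changed little between naïve lines. Each runs 5′ to 3′ from 250 bases before to 50 after the start of the gene (RefSeq, build GRCm38.p6). RefSeq promoters matched 5 of the 10 genes, the fifth being Etv5 with 2 starts. Capitals mark matches on either strand to the SP1 motif GGGCGG or the ETS motif CGGAAG. These lie at chr14:105896770-105897069 on the minus strand for Spry2, chr7:144861136-144861435 on the plus strand for Fgf4, chr7:130266759-130267058 on the minus strand for Fgfr2 and chr10:99262981-99263280 on the plus strand for Dusp6.
Spry2: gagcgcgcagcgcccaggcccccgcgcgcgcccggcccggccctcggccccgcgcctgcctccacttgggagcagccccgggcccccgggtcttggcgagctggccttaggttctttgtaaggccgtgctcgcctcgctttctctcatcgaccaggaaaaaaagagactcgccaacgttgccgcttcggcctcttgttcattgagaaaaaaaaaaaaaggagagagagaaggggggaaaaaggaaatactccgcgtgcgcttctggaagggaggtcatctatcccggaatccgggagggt
Fgf4: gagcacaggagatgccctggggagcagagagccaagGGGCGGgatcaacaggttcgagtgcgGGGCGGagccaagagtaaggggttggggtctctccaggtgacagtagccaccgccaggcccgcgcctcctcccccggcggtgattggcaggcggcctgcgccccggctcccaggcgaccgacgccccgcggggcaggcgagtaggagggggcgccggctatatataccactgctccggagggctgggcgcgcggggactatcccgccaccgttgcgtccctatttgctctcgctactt
Fgfr2: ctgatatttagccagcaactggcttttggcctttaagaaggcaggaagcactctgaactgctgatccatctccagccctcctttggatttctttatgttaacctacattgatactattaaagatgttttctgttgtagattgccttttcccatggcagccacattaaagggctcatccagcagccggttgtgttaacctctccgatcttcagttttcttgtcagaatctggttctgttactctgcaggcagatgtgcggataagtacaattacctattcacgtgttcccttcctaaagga
Dusp6: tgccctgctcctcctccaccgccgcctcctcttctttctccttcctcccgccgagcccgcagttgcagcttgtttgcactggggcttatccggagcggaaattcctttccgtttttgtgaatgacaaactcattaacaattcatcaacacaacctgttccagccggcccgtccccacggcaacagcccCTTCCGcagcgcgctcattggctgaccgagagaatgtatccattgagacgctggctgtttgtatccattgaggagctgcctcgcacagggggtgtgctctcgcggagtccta

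The Spry2 and Fgf4 promoters were rich in CpG, with 28 CpG dinucleotides each and a GC content of 62.7% and 69.7%, against a median of 7 CpG and 52.7% over all 32851 promoters. The Fgfr2 promoter held 4 CpG at 43.7% GC, and that of Dusp6 held 19 CpG at 57.3% GC. Dusp6 held 1 ETS motif, which is present in 16.9% of all promoters, at 62 bases before the start. Fgf4 held 2 SP1 motifs, found in 35.7% of all promoters. None of these 4 windows held the TCF/LEF motif CTTTGAT, the AP-1 motif TGANTCA or a CArG box, which occur in 3.73%, 7.81% and 1.63% of all promoters. No 2 matches overlapped, and a match is a description of letters only.

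Spry2 differed most clearly between the naïve-state lines: it rose 2.87-fold in GKO and 2.49-fold in DKO, and fell in AKO and in primed ESCs. Egr1 fell to 0.215 of its naïve level in GKO, and its mean in DKO was 1.01 times the naïve one, with no call. Fgf4, Spry4, Etv4, Etv5 and Dusp6 fell in primed ESCs while Fgfr1 and Dusp4 rose, and Fgfr2 reached 19.1 TPM or more only there. The plot of TPM by line shows both the naïve lines and the primed libraries on a linear scale.

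**Figure D1:**
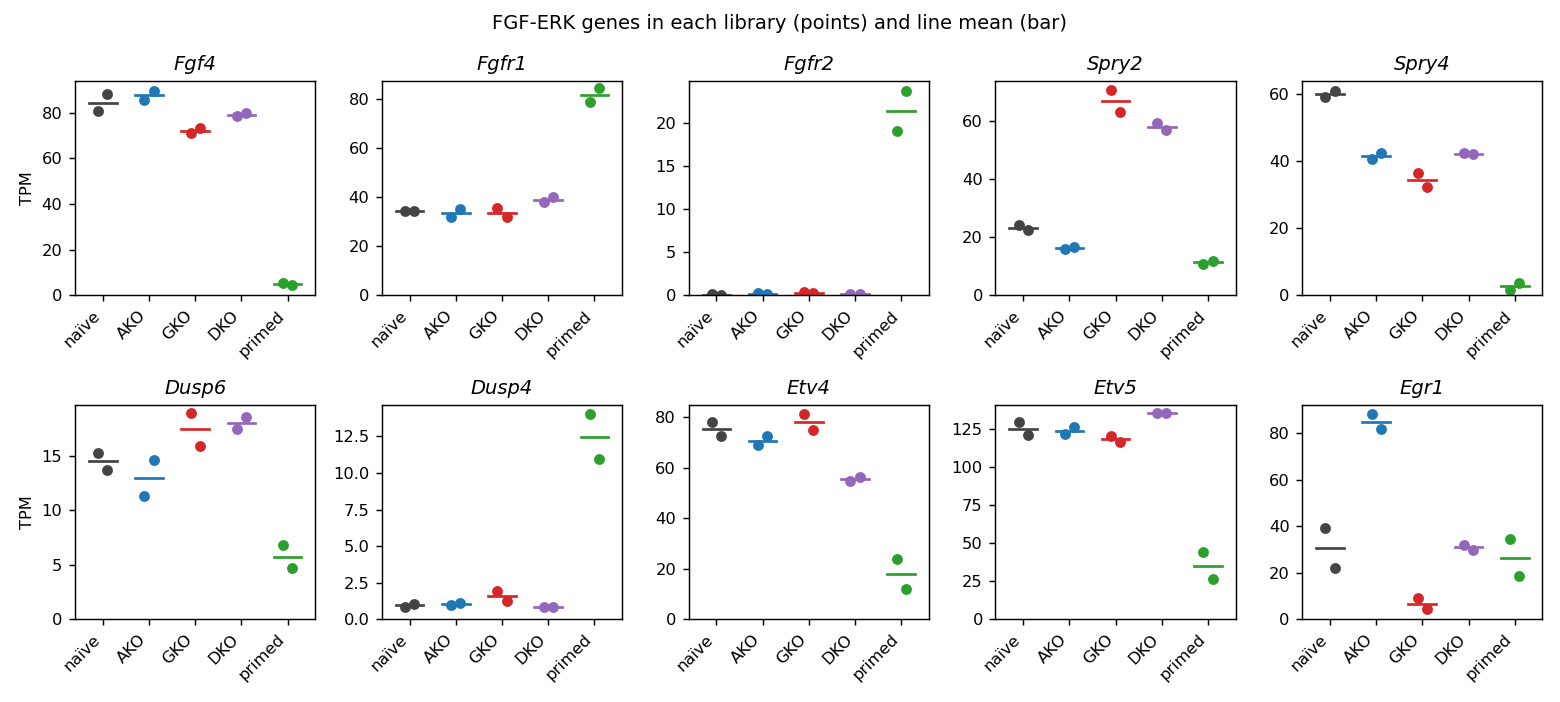
TPM of the 10 genes (y axis, linear from 0, a scale for each gene) in the 2 libraries of each of 5 lines (points, with the line mean as a bar). Spry2 lies at 56.8 TPM or more in GKO and DKO only, Egr1 is highest in AKO and lowest in GKO, and Fgfr2 and Dusp4 are high in primed ESCs.

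All counts of calls below are at an adjusted p under 0.05 by limma on log2(TPM + 1), a scale that understates changes of low genes. In GKO against naïve ESCs, 3 of the 10 genes rose and 3 fell, where 51.7% of all genes tested were called, 24.7% as higher and 27.1% as lower. In DKO against naïve ESCs, 1 rose and none fell, with 46.0% of all genes called, 21.7% as higher and 24.3% as lower. In AKO against naïve ESCs, 1 fell, with 0.224% called, 0.0663% as higher and 0.158% as lower. In primed against naïve ESCs, 2 rose and 6 fell of the 9 genes other than Fgfr2, which the filter kept only for its primed level, with 80.0% called, 37.4% as higher and 42.5% as lower. GKO differed from DKO in 4 genes, 2 higher and 2 lower, with 43.5% of all genes called, 21.2% higher and 22.4% lower. DKO differed from AKO in 4, 3 higher and 1 lower, with 46.3% called, 22.4% higher and 23.9% lower. The effect of the Gys1 knockout in wild-type cells (GKO minus naïve) differed from that in AMPK knockout cells (DKO minus AKO) in 0 of the 10, where 25.8% of all genes were called, and 5 of the 10 (Fgfr1, Fgfr2, Spry2, Spry4 and Dusp4) had an unadjusted p under 0.05 by limma. The GKO, DKO, AKO and primed comparisons share the naïve libraries. With 2 libraries against 2, an exact permutation test of a single gene cannot go below p = 0.333.

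The primed libraries weighed on these counts through the spread. They differed from each other by 0.95 on the log2 scale for Spry4, 0.94 for Etv4 and 0.73 for Etv5. In a fit without them, over 11186 genes and with Fgfr2 not tested, the standard error of a change fell from 0.23 to 0.06 for Spry4, from 0.23 to 0.05 for Etv4 and from 0.18 to 0.04 for Etv5. The calls were then 5 in GKO against naïve ESCs (63.0% of all genes), 5 in DKO (57.9%) and 3 in AKO (1.56%), 8 between GKO and DKO (56.0%), 7 between DKO and AKO (58.0%) and 5 for the difference between Gys1 effects (Spry2, Spry4, Dusp4, Etv4 and Etv5, with 39.4% of all genes). The DKO calls gained were Fgfr1 and Etv5 as higher and Spry4 and Etv4 as lower, and in AKO Egr1 was called higher and Spry4 lower. The calls that held when any 1 of the 10 libraries was left out were those of Spry2 in GKO against naïve ESCs, DKO against naïve ESCs and DKO against AKO, those of Egr1 in GKO against naïve ESCs and GKO against DKO, and the 8 calls in primed ESCs other than Fgfr2. Quantile normalization ended the GKO calls of Fgf4, Fgfr2 and Dusp4 and the AKO call of Spry2, and between knockout lines that of Fgfr1 in GKO against DKO and that of Dusp6 in DKO against AKO. With no filter on low values, the GKO calls left were those of Spry2 and Egr1.

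**Figure D2:**
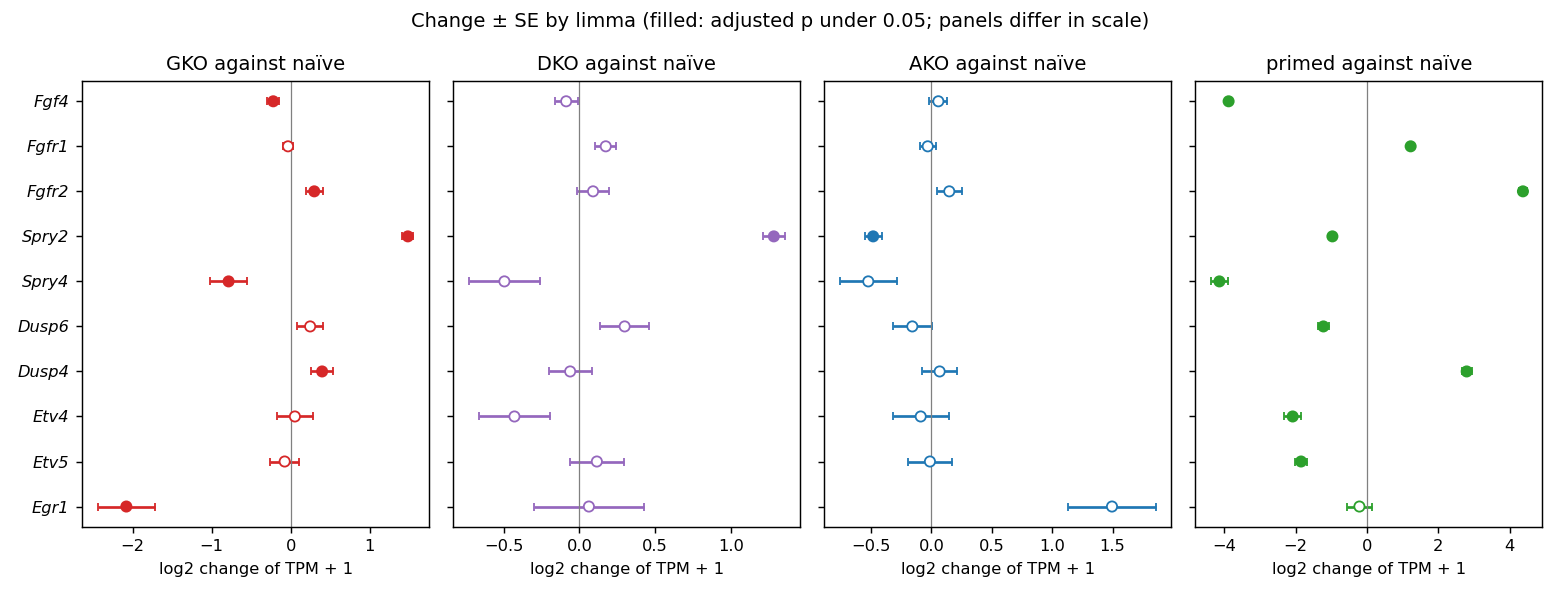
Log2 change of TPM + 1 (x axis, a scale for each panel) with its standard error by limma for the 10 genes in 4 comparisons with naïve ESCs. Filled points passed an adjusted p under 0.05: 6 in GKO, 1 in DKO, 1 in AKO and 9 in primed ESCs, the last including Fgfr2, which the filter on low values kept only for its primed level.

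Fgf4, the FGF that ESCs secrete, was among the highly expressed genes of naïve ESCs, at percentile 90.6 of the genes tested. Its TPM was 80.5 and 88.1 in naïve ESCs, 85.8 and 89.6 in AKO, 71.2 and 73.1 in GKO, 78.7 and 79.7 in DKO, and 5.26 and 4.34 in primed ESCs. Both GKO libraries lay below all libraries of the other naïve-state lines, and both primed libraries far below these. The change was -3.88 ± 0.08 (SE) in primed ESCs, the largest fall but for that of Spry4 (adjusted p = 3.88e-10). In GKO, Fgf4 fell by 0.22 ± 0.08 (adjusted p = 0.0355). This call was lost when any of 7 libraries was left out, namely any naïve-state library but naïve replicate 1, with changes of -0.28 to -0.16 and adjusted p between 0.00370 and 0.213. The changes in DKO and AKO were -0.09 and 0.06, with adjusted p = 0.372 and 0.891.

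Fgfr1, the receptor that predominates in naïve ESCs, lay at 34.4 and 34.6 TPM there, 32.2 and 35.5 in AKO, 35.5 and 32 in GKO, 38.1 and 40.1 in DKO, and 79.0 and 84.9 in primed ESCs. The primed libraries were the highest, the DKO libraries came next, and the other 3 lines overlapped. It rose by 1.22 ± 0.07 in primed ESCs (adjusted p = 2.35e-07), a 2.37-fold difference in TPM. Fgfr1 was also lower in GKO than in DKO, by -0.21 ± 0.07 (adjusted p = 0.0354), and higher in DKO than in AKO, by 0.20 ± 0.07 (adjusted p = 0.0350). Each of these calls was lost without any of 5 libraries: naïve 1 or 2, DKO 1 or 2 and GKO 2 for the first, with adjusted p up to 0.222, and naïve 1 or 2, AKO 1 and DKO 1 or 2 for the second, with adjusted p up to 0.221.

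Fgfr2, the receptor known from the primitive endoderm and trophectoderm, was near the lower limit in all naïve-state lines. Its TPM was 0.105 and 0.048 in naïve ESCs, 0.231 and 0.154 in AKO, 0.365 and 0.283 in GKO, and 0.130 and 0.160 in DKO, against 19.1 and 23.7 in primed ESCs. The log2 change in primed ESCs was 4.37, given as a description with no test, since Fgfr2 was kept by the filter only for its level there. The ratio of Fgfr1 to Fgfr2 TPM, which was 97.2 or more in every naïve-state library, was 4.14 and 3.59 there. The rise of 0.30 ± 0.10 in GKO (adjusted p = 0.0397) was between levels of at most 0.365 TPM, and it was lost without any of the 8 naïve-state libraries, with adjusted p between 0.0539 and 0.176. Primitive endoderm markers summed to 1.93 and 2.18 TPM in GKO and to 1.61 and 1.76 in naïve ESCs, with 4 and 5 of the 5 genes under 1 TPM in both libraries, and trophectoderm markers to 23.7 and 24.1 against 11.9 and 12.4 TPM. In DKO, where Fgfr2 did not pass the test, the trophectoderm sum was 20.5 and 22.8 TPM. The trophectoderm sum rose through Cdx2, Krt8 and Krt18, while Gata3 went from 0.911 and 0.629 TPM in naïve ESCs to 0.048 and 0.101 in GKO. In the primitive endoderm list Gata4 rose in GKO, while Dab2 went from 0.665 and 0.826 TPM to 0.149 and 0.325. Whether cells of these types were present, and their part in the Fgfr2 values, was not tested.

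Spry2, a Sprouty inhibitor of receptor signalling to Ras, gave the clearest differences between the naïve-state lines. It lay at 24.2 and 22.3 TPM in naïve ESCs, 16.1 and 16.6 in AKO, 70.6 and 63.0 in GKO, 59.0 and 56.8 in DKO, and 10.8 and 11.9 in primed ESCs. No 2 lines overlapped, and the order was GKO, DKO, naïve, AKO and primed. Relative to naïve ESCs, Spry2 in GKO was higher by 1.48 ± 0.07 (adjusted p = 1.56e-06). In DKO the rise was 1.28 ± 0.07 (adjusted p = 4.70e-06), and DKO exceeded AKO by 1.76 ± 0.07 (adjusted p = 1.07e-06), 3.55-fold in TPM. It fell by 0.97 ± 0.07 in primed ESCs (adjusted p = 1.44e-06). In AKO it fell by 0.48 ± 0.07 (adjusted p = 0.0420), the only one of the 10 genes called there. That call was lost without any of the 8 naïve-state libraries, with changes of -0.54 to -0.43 and adjusted p up to 0.453. GKO exceeded DKO by 0.20 ± 0.07 (adjusted p = 0.0466), a call lost without any of 7 libraries, both libraries of naïve ESCs, AKO and DKO and GKO 1, with adjusted p up to 0.290.

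Many genes of chromosome 14, where Spry2 lies, were higher in GKO and DKO. The median change of the 393 other genes tested on it was 0.47 in GKO and 0.36 in DKO, which is 0.49 and 0.38 above the median of the genes elsewhere. Spry2 exceeded these medians by 1.01 in GKO and 0.92 in DKO, and ranked 8 of 394 and 10 of 394 on the chromosome. In primed ESCs the chromosome median was 0.54, and Spry2 ranked 375 of 394. In AKO the median was -0.01. The part of this chromosome-wide difference in the Spry2 values was not tested. For the other 9 genes the chromosome medians in GKO lay between -0.09 and 0.08. In primed ESCs the median of chromosome 11, where Etv4 lies, was 0.30, which is 0.38 above that of the genes elsewhere. The Etv4 change there was -2.39 relative to this median. The plot of each gene beside its chromosome shows that Spry2 lay outside the range from the 5th to the 95th percentile in both GKO and DKO.

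**Figure D3:**
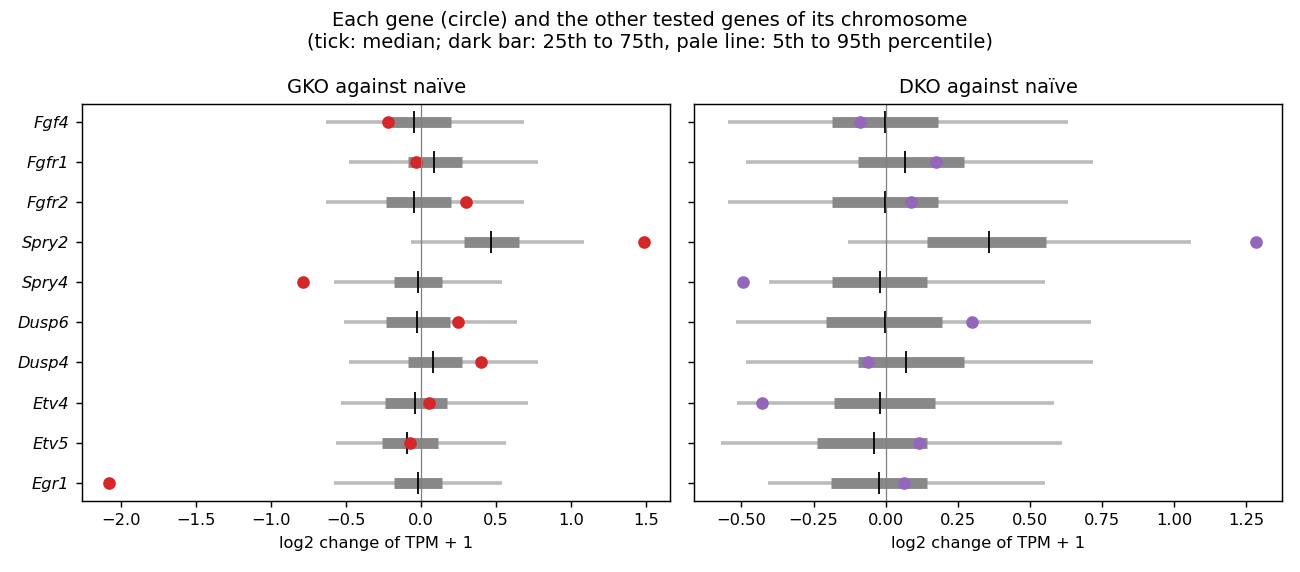
Log2 change of TPM + 1 (x axis, a scale for each panel) of each gene (circle) in GKO and DKO against naïve ESCs, beside the other tested genes of its chromosome (tick, median; dark bar, 25th to 75th percentile; pale line, 5th to 95th). The bar of Spry2 is shifted to the right, with a median of 0.47 in GKO and 0.36 in DKO, and Spry2 lies beyond its 95th percentile of 1.08 and 1.06.

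Spry4, the second Sprouty inhibitor, fell in GKO, where Spry2 rose. Its TPM was 59.0 and 60.9 in naïve ESCs, 40.6 and 42.3 in AKO, 36.5 and 32.4 in GKO, 42.3 and 42.2 in DKO, and 1.49 and 3.81 in primed ESCs. Naïve ESCs had the highest values, AKO and DKO overlapped, GKO lay below them and primed ESCs lowest. The change was -4.14 ± 0.23 in primed ESCs (adjusted p = 2.74e-07) and -0.79 ± 0.23 in GKO (adjusted p = 0.0206), where Spry4 ranked 279 of the 287 genes tested on its chromosome. The GKO call was lost when naïve 1, naïve 2, GKO 1 or GKO 2 was left out, with adjusted p up to 0.105. The changes in DKO and AKO were -0.50 and -0.52 (adjusted p = 0.116 and 0.496). The change was -0.79 from naïve ESCs to GKO and 0.03 from AKO to DKO, 2 lines that also differed in Prkaa1 mRNA. The difference of -0.81 ± 0.33 between these changes did not pass the test with all libraries in the fit (adjusted p = 0.105 by limma). Without the primed libraries its standard error was 0.08 and it was called.

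The ratio of Spry4 to Spry2 TPM was alike in naïve ESCs and AKO and lower in the other lines. It was 2.44 and 2.73 in naïve ESCs and 2.53 and 2.55 in AKO, 0.517 and 0.514 in GKO, 0.717 and 0.743 in DKO, and 0.138 and 0.320 in primed ESCs. Spry4 was thus the more abundant of the pair in naïve ESCs and AKO and the less abundant in GKO, DKO and primed ESCs.

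Dusp6, the cytoplasmic phosphatase of ERK and a common readout of FGF signalling, changed little between naïve-state lines. Its TPM was 15.3 and 13.7 in naïve ESCs, 11.4 and 14.6 in AKO, 19.0 and 15.9 in GKO, 17.5 and 18.6 in DKO, and 6.79 and 4.66 in primed ESCs. Naïve ESCs and AKO overlapped, as did GKO and DKO, and the second pair lay above the first. Changes of 0.25 ± 0.16 in GKO (adjusted p = 0.231) and 0.30 ± 0.16 in DKO (adjusted p = 0.163) did not pass the test. Dusp6 was higher in DKO than in AKO by 0.46 ± 0.16 (adjusted p = 0.0448), a call lost without any of 7 libraries, both libraries of naïve ESCs, DKO and GKO and AKO 1, with adjusted p up to 0.265. In primed ESCs it fell by 1.22 ± 0.16 (adjusted p = 8.67e-05).

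Dusp4, the nuclear phosphatase of ERK, was low in all naïve-state lines. It lay at 0.849 and 1.01 TPM in naïve ESCs, 0.945 and 1.10 in AKO, 1.89 and 1.24 in GKO, 0.847 and 0.851 in DKO, and 14.0 and 10.9 in primed ESCs. It rose by 2.79 ± 0.14 in primed ESCs (adjusted p = 1.36e-07), a 13.4-fold difference in TPM. The ratio of Dusp4 to Dusp6 TPM was 0.0457 to 0.0995 in the naïve-state libraries, and 2.06 and 2.34 in primed ESCs. GKO exceeded naïve ESCs by 0.40 ± 0.14 (adjusted p = 0.0429) and DKO by 0.46 ± 0.14 (adjusted p = 0.0286). The first call was lost without any of 7 libraries, all naïve-state ones but GKO 2, with adjusted p up to 0.289, and the second without DKO 1, DKO 2 or GKO 1, with adjusted p up to 0.200.

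**Figure D4:**
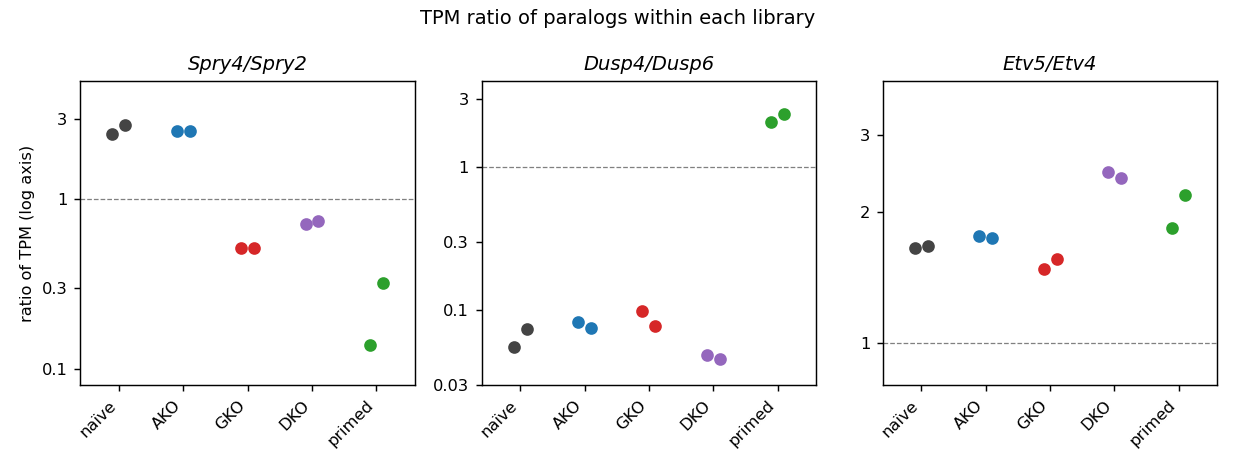
Ratio of the TPM of 2 related genes within each library (y axis, log scale; points, the 2 libraries of each line; dashed line, a ratio of 1). Spry4/Spry2 is 2.44 or more in naïve ESCs and AKO and below 1 in the other lines, Dusp4/Dusp6 is 2.06 or more in primed ESCs and 0.0995 or less elsewhere, and Etv5/Etv4 is highest in DKO.

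Etv4 and Etv5, the ETS factors that ERK signalling induces, were highly expressed in naïve ESCs, at percentiles 89.3 and 94.0. Etv4 lay at 78.1 and 72.4 TPM in naïve ESCs, 68.9 and 72.4 in AKO, 81.5 and 74.8 in GKO, 54.8 and 56.4 in DKO, and 23.9 and 12 in primed ESCs. Naïve ESCs overlapped AKO and GKO, which did not overlap each other, and both DKO libraries lay below all of these. Etv5 lay at 129 and 121 TPM in naïve ESCs, 122 and 126 in AKO, 120 and 117 in GKO, 135 and 135 in DKO, and 43.9 and 26.2 in primed ESCs. Here DKO was highest, and naïve ESCs and AKO overlapped. Both genes fell in primed ESCs, Etv4 by 2.08 ± 0.23 (adjusted p = 2.65e-05) and Etv5 by 1.85 ± 0.18 (adjusted p = 1.05e-05). The Etv4 change in DKO was -0.43 ± 0.23 (adjusted p = 0.162) and that of Etv5 0.11 ± 0.18 (adjusted p = 0.640). Without the primed libraries both were called at the same size, with standard errors of 0.05 and 0.04. Their adjusted p by limma was then 0.000185 for Etv4 and 0.0484 for Etv5. In a fit of DKO and naïve ESCs alone, Etv5 was not called. The ratio of Etv5 to Etv4 TPM was 2.47 and 2.40 in DKO, against 1.48 to 1.77 in the 6 libraries of naïve ESCs, AKO and GKO.

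Egr1, an immediate early zinc finger factor that ERK induces, varied most among the naïve-state lines. Its TPM was 39.2 and 22.1 in naïve ESCs, 88.1 and 81.7 in AKO, 8.93 and 4.24 in GKO, 31.9 and 29.8 in DKO, and 34.4 and 18.5 in primed ESCs. Both AKO libraries lay above all others and both GKO libraries below, while DKO and primed ESCs overlapped naïve ESCs. On the log2 scale the 2 naïve libraries differed by 0.80, those of GKO by 0.92 and the primed ones by 0.86. Egr1 fell by 2.08 ± 0.36 in GKO (adjusted p = 0.00138), the lowest change of the 287 genes on its chromosome, and was lower in GKO than in DKO by -2.14 ± 0.36 (adjusted p = 0.00161). It was lower in DKO than in AKO by -1.43 ± 0.36 (adjusted p = 0.0107), a call lost without AKO 1 or without DKO 2, with adjusted p up to 0.0577. The 2.77-fold higher level in AKO, 1.49 ± 0.36 on the log2 scale, had adjusted p = 0.174. Egr1 was thus lower with the Gys1 knockout in both pairs of lines, GKO against naïve ESCs and DKO against AKO, and the difference of -0.65 between these effects did not pass the test.

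Fos, another immediate early gene that ERK induces through serum response factor, lay at 2.80 and 1.58 TPM in naïve ESCs, 7.51 and 7.48 in AKO, 1.76 and 1.695 in GKO, 5.06 and 5.50 in DKO, and 12.6 and 3.74 in primed ESCs. Fos was lower in GKO than in DKO by -1.20 (adjusted p = 0.0355). Of the 7 immediate early and other ERK-responsive genes tested, 3 fell and none rose in GKO, and 1 rose in DKO, where 51.7% and 46.0% of all genes were called.

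A wider list of 72 further genes of the pathway was read by role, of which 58 were tested. In GKO, 10 rose and 19 fell, where 24.7% of all genes tested were called higher and 27.1% lower, with a median change of -0.03 over the list and -0.01 over all genes tested. In DKO, 6 rose and 18 fell, against 21.7% and 24.3% of all genes, with a median of -0.09 against -0.01. In AKO 0 were called by limma, against 0.224% of all genes, and 5 had an unadjusted p under 0.05. In primed ESCs 18 rose and 27 fell, against 37.4% and 42.5% of all genes, with a median of -0.18 against -0.05. These primed values include 4 genes (Fgf8, Fgf13, Fgfr3 and Ets1) that the filter kept only for their primed level. Without the primed libraries, 54 of the genes were tested, and 36 were called in GKO, 30 in DKO and 2 in AKO. Of all genes in that fit, 63.0%, 57.9% and 1.56% were called.

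The kinase cascade of Ras, Raf, MEK and ERK, with 14 genes tested, gave 3 rises and 6 falls in GKO and no rise and 7 falls in DKO. Of all genes tested, 51.7% were called in GKO and 46.0% in DKO, 24.3% as lower. Hras, which encodes a Ras GTPase, fell by 0.65 ± 0.06 and Map2k2, which encodes a MEK kinase, by 0.63 ± 0.07 in DKO. In GKO, Braf rose by 0.31 ± 0.06, while Araf fell by 0.65 ± 0.08 and Nras by 0.47 ± 0.09. These Raf and Ras genes therefore moved in both directions in GKO.

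Among the 10 adaptors and Ras regulators tested, 3 rose and 3 fell in GKO, and 4 rose and 2 fell in DKO, with 51.7% and 46.0% of all genes called. Rasa1, a GTPase activating protein that switches Ras off, rose by 0.64 ± 0.07 in GKO and by 0.39 ± 0.07 in DKO. Gab1, a docking adaptor, moved in opposite directions, by -0.47 ± 0.04 in GKO and 0.28 ± 0.04 in DKO. In primed ESCs its TPM was 4.32 and 4.23, against 84.1 and 82.3 in naïve ESCs.

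Of the 9 further feedback inhibitors tested, 1 rose and 3 fell in GKO, and 5 fell in DKO, where 51.7% of all genes were called in GKO and 46.0% in DKO, 24.3% as lower. Dusp9, a phosphatase of ERK, lay at 21.6 and 21.2 TPM in naïve ESCs, 21.8 and 19.9 in AKO, 33.0 and 34.2 in GKO, and 13.7 and 14.2 in DKO. It rose by 0.63 ± 0.10 in GKO and fell by 0.58 ± 0.10 in DKO, and Dusp1, another dual-specificity phosphatase, fell by 0.60 ± 0.16 in DKO. Of the 10 ETS factors and serum response factor tested, 1 rose and 3 fell in GKO, and 2 fell in DKO, against the same shares of all genes. Elk1, the ETS partner of serum response factor, had 16.3 and 16.9 TPM in the naïve libraries, 7.63 and 8.57 TPM in GKO, and 9.998 and 9.72 TPM in DKO.

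Ligands and receptors of the list were few. Of 6 FGF ligands tested, 2 rose and 1 fell in GKO, and 1 rose and 1 fell in DKO, with 51.7% and 46.0% of all genes called. Fgf10 had 9.26 and 9.27 TPM in the naïve libraries, 4.57 and 3.94 TPM in GKO, 6.65 and 7.10 TPM in DKO, and was listed at 0 in both primed libraries. Fgf15 rose by 2.57 in primed ESCs (adjusted p = 0.000280), where the libraries differed, at 17.4 and 4.90 TPM. Fgf8 was at 20.6 and 1.36 TPM there and at 0.213 to 0.623 TPM in the naïve-state libraries, so that the filter kept it only for its primed level. Of 2 further receptors tested, none was called in GKO and 1 fell in DKO.

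**Figure D5:**
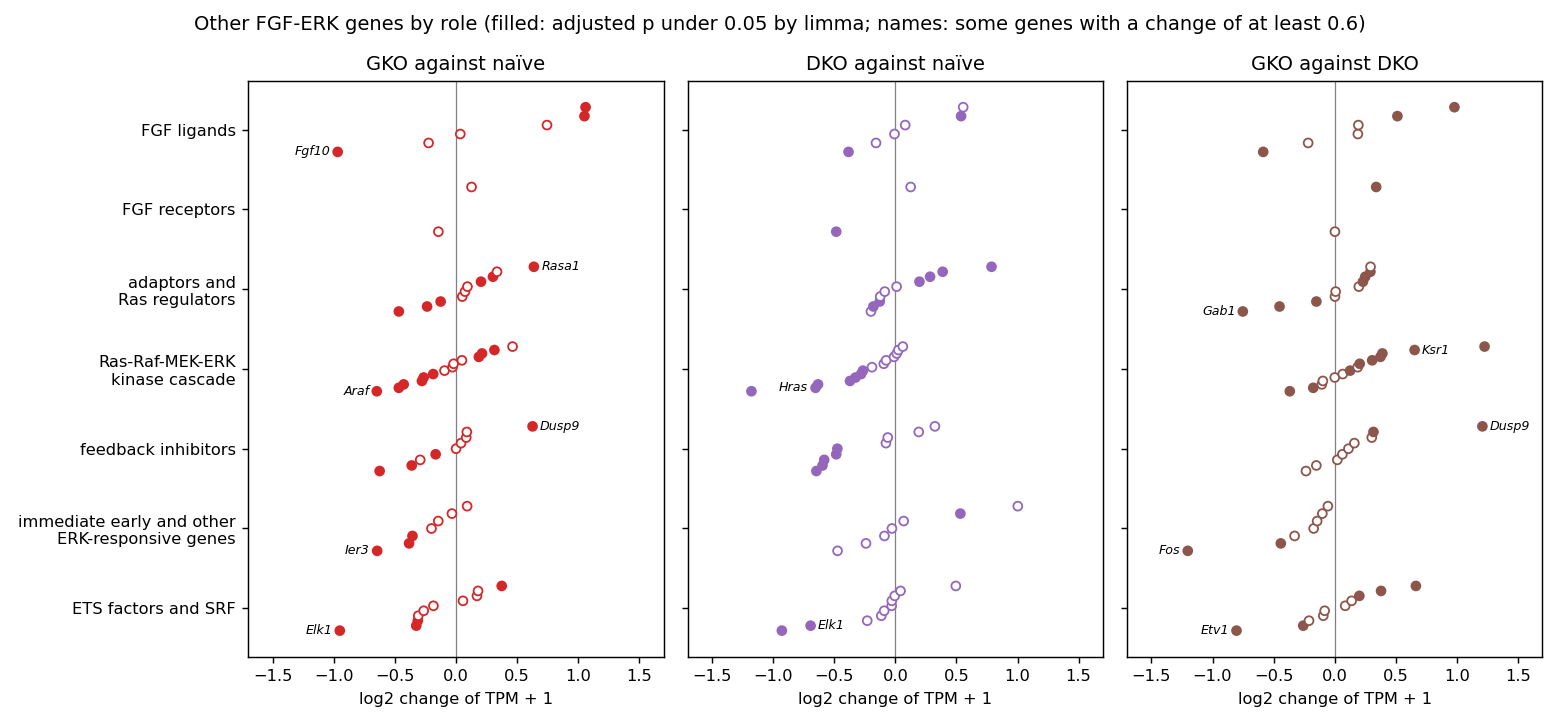
Log2 change of TPM + 1 (x axis) of the 58 further pathway genes tested, grouped by role, for GKO and DKO against naïve ESCs and for GKO against DKO. Filled points passed an adjusted p under 0.05 by limma: 29, 24 and 28 genes. In DKO the called genes of the kinase cascade and of the feedback inhibitors all lie to the left of 0.

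GKO exceeded DKO in 18 of the 58 genes and was below it in 10, against 21.2% and 22.4% of all genes. Dusp9 was higher in GKO by 1.21 (adjusted p = 3.92e-05) and Gab1 lower by -0.75 (adjusted p = 7.37e-06). DKO exceeded AKO in 6 of the genes and was below it in 19, against 22.4% and 23.9% of all genes, with Phlda1, an ERK-responsive gene, higher by 0.84 and Map2k2 lower by -0.60.

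The genes whose levels ran most like those of Dusp6 over the 8 naïve-state libraries, among 8081 genes compared, were Cntrob with a Pearson correlation of 0.968, Dcaf12l1 with 0.958 and Champ1 with 0.957. These 8 libraries come from 4 lines in pairs. Cntrob lay between 8.46 and 12.7 TPM, Dcaf12l1 between 6.11 and 9.99, and Champ1 between 42.6 and 49.1. In primed ESCs, where Dusp6 fell, Cntrob was at 13.2 and 12.2 TPM.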

How the data were processed

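RNA-seq of 10 libraries, 2 from each of 5 J1 lines, was taken from the deposited tables, which list TPM for 21853 genes per library. Per the labels and the study's methods, the authors trimmed reads with Trim Galore 0.6.6 after FastQC, aligned them with STAR 2.7.9a and made TPM with RSEM 1.3.3. The library kit and the mouse build differ between the labels and the methods (GRCm38 and GRCh38 in the labels, GRCm39 in the methods). TPM keep no read depth, so that depth is unknown and no counting interval is given. The TPM listed sum to 500162 to 578952 per library, and 10537 to 11113 genes reached 1 TPM.

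Here TPM were transformed as log2(TPM + 1) and the 12060 genes that reached 1 TPM in 2 or more libraries were kept. One limma fit (limma 3.58.1, R 4.3.3) held a mean per line over all 10 libraries, with an intensity trend and Benjamini-Hochberg adjustment within each comparison at 0.05. The procedure was run on data simulated with the spread of the naïve-state lines and with changes in GKO only. That run did not cover the wider spread of the primed libraries. Replicate numbers did not pair the samples: the correlations of same-numbered deviations between lines were -0.128 to 0.0780. The 10 genes and all gene lists were chosen with earlier results of these data known. Named from the wider list were up to 6 rises and 6 falls per comparison that passed the test, averaged 5 TPM or more in whichever line was higher and did not overlap between libraries. One item of the list that is counted is not reported here by name. Markers were fixed lists for naïve, core and primed pluripotency, primitive endoderm, trophectoderm, mesendoderm and fibroblasts. Tables were handled with Python 3.11.15 and pandas 2.3.3. Alternatives were another pseudocount, other filters, 2 scalings, no trend, a replicate block, other sets of libraries, a fold minimum and each library left out in turn.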

Additional observations from a re-analysis of the deposited data

Results flagged for a closer look

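The effect of the Gys1 knockout in wild-type cells was set against that in AMPK knockout cells, as (GKO minus naïve) minus (DKO minus AKO). DKO also had less Prkaa1 mRNA than AKO, and the part of this in the difference was not tested. With all libraries in the fit the difference passed an adjusted p under 0.05 by limma for 0 of the 10 genes, 5 of which had an unadjusted p under 0.05, and for 11 of the 58 tested of the wider pathway list, 8 of which are named here. Over all 12060 genes, 25.8% passed, and 4681 had an unadjusted p under 0.05. It was 1.17 on the log2 scale for Dusp9, 0.52 for Braf, 0.31 for Spred2, a Sprouty-related inhibitor, 0.30 for Hras and 0.23 for Ptpn11, which encodes the phosphatase SHP2. It was -0.81 for Gab1, -0.75 for Phlda1 and -0.37 for Elk1. Dusp9 rose in GKO and fell in DKO, and Gab1 did the reverse. Dusp9 kept its call under all 20 alternatives tried, and Braf and Gab1 under 19 of 20, a fold minimum being the exception. The calls of Spred2, Hras, Ptpn11, Phlda1 and Elk1 were each lost without at least 5 single libraries, with the highest adjusted p at 0.0641, 0.0944, 0.0887, 0.0770 and 0.116. Groups of 2 libraries were too small to test for a single library that stands apart.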

How the results depend on the processing

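TPM keep no read depth, and the spread was taken from 2 libraries a line. Over all alternatives, 1275 changes of single genes kept their direction and side of the threshold, 150 lost a call, 78 gained one, 8 moved by more than the spread between replicates when the median of their chromosome was subtracted, and 16 turned sign, none of the 16 called; the causes were not tested except where fewer samples or genes were used. Of the 10 genes, the calls numbered 6 in GKO, 1 in DKO, 1 in AKO and 9 in primed ESCs against naïve ESCs. There were 4 for GKO against DKO, 4 for DKO against AKO and 0 for the difference between Gys1 effects. The primed counts here and below include Fgfr2 wherever it stayed in the fit. The filter kept Fgfr2 only for its primed level, so that its primed change is a description only. With a pseudocount of 0.1 the calls became 0 in AKO and 1 for the difference between effects (Fgfr2), where 13 and 2994 of all 12060 genes were called. With no filter they were 2 in GKO, 0 in AKO, 1 for GKO against DKO and 1 for DKO against AKO. Of all 21853 genes, 5921, 54, 4761 and 5240 were called there. Quantile normalization gave 3 in GKO, 2 in DKO and 0 in AKO, where 5912, 5303 and 23 of all 12060 genes were called. Median-ratio scaling gave 2 in DKO, with 5498 of all genes called. With no intensity trend there were 0 in AKO, 2 for GKO against DKO and 2 for DKO against AKO, with 20, 5130 and 5526 of all genes called. A filter at a mean of 5 TPM left Fgfr2 and Dusp4 untested, and the fit without the primed libraries could not give primed against naïve ESCs. A fold minimum of 1 on the log2 scale left 2, 1, 0 and 8 against naïve ESCs, then 1, 2 and 0. Of all 12060 genes it left 433, 357, 1 and 3355, then 323, 375 and 349. With the replicate block the counts were 4 in GKO, 1 in DKO, 0 in AKO, 9 in primed ESCs, 3, 3 and 0. Of all 12060 genes, 6046, 5382, 8, 9573, 5034, 5409 and 2875 were called there. The replicate numbers mark no shared animal or culture. Fits of the compared lines only, or without the primed libraries, gave 5 in DKO, 3 in AKO, 8, 7 and 5. With the compared lines only, 6263, 92, 5839, 6013 and 4403 of 10870, 10617, 11008, 10873 and 11186 genes were called. Leaving out each library in turn, with a lone library taken to vary like the others, moved the count in every comparison. The calls over all genes also moved, so that these shifts are not particular to the 10 genes.

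For the wider list the same alternatives were chosen after seeing the data. With the fold minimum, counts moved to 2 in GKO, 1 in DKO and 21 in primed ESCs. They were then 3 for GKO against DKO, 1 for DKO against AKO and 3 for the difference. Of all 12060 genes, 433, 357, 3355, 323, 375 and 349 were called there. With no filter the count was 18 for GKO against DKO, where 4761 of all 21853 genes were called. Without the primed libraries or with the compared lines only, it was 2 in AKO and 20 for the difference. Without the primed libraries, 1.56% and 39.4% of all genes were called in these. Leaving out each library gave 17 to 36 in GKO, 16 to 30 in DKO, 0 to 2 in AKO, 41 to 46 in primed ESCs, 10 to 34, 15 to 34 and 5 to 20 in the same order.

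The sign turned as follows, always without a call. With quantile normalization Fgfr1 and Etv5 in GKO were 0.0527 and 0.0312, and Fgf4 in DKO 0.00246. Leaving out each library in turn gave the following ranges, with the library whose absence turned the sign. In GKO these were -0.106 to 0.0387 for Fgfr1 (GKO 2), and -0.00797 to 0.114 for Etv4 (GKO 1, and naïve 2 with -0.000267). In DKO, Egr1 was -0.336 to 0.460 (naïve 2). In AKO, Fgf4 was -0.00656 to 0.121 (naïve 1), Fgfr1 -0.0989 to 0.0372 and Dusp6 -0.326 to 0.00917 (both AKO 1), and Etv5 -0.0617 to 0.0364 (naïve 1, and AKO 1 with 0.0132). Egr1 in primed ESCs was -0.645 to 0.218 (primed 2, and naïve 1 with 0.184). Dusp6 in GKO against DKO was -0.174 to 0.0707 (GKO 2), and Spry4 in DKO against AKO -0.0023 to 0.0575 (AKO 1).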
